A study of Mus musculus with 2 samples.

Results

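The cells described here are the 606 mouse mammary basal cells of the WT library with the highest summed level of Ptx3, Chil1 and Matn4, out of 6065 basal cells of that library and 12652 cells listed by the authors in 2 libraries. Basal cells were taken from the authors' table of listed cells: those with at least 0.5% of their UMIs (unique molecular identifiers, 1 per captured RNA molecule) in Krt5, Krt14, Acta2 and Tagln, and with more Krt5 and Krt14 than Krt8 and Krt18. The score of a cell is the sum over the 3 genes of their UMIs per 1000000 UMIs of the cell (CPM), and the top 10% by this score were kept. Each was set beside 3 other basal cells of the same library with nearly the same total UMIs, giving 1818 matched cells. The cells were thus chosen by their own RNA, so the levels of the 3 genes are a description only.

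The study measured RNA of single cells from mammary glands of C57BL/6 mice, sorted as CD24highCD29+ per the labels, with the 10x Genomics 3' kit (V3). One library was labelled WT and 1 Fgd5-ko, the latter titled as a conditional knockout. The number of mice pooled, their age, the meaning of P4 in both titles, the driver of the deletion and its deleted part are not stated by the labels. With 1 library per group no test between libraries was possible, and every interval below is exact, at 95%, and reflects counting error alone.

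The basal layer of the mammary gland lies between the luminal cells and the basement membrane, and its myoepithelial cells contract to expel milk. PTX3 is a secreted long pentraxin, a soluble pattern recognition protein of innate immunity that also helps to assemble hyaluronan matrix. CHIL1 (also called CHI3L1, YKL-40 or BRP-39) is a secreted chitinase-like glycoprotein that binds chitin without cleaving it and is commonly raised in inflammation and tissue remodelling. MATN4 is a matrilin, an adaptor protein of extracellular matrix networks.

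The score rests on Chil1 above all. The promoters of Chil1 and Ptx3 are shown, as the 250 bases before the RefSeq start of each gene (GRCm38.p6, plus strand, 5′ to 3′). Chil1 (ENSMUSG00000064246) lies on chromosome 1 from 134182176 to 134190181 and Ptx3 (ENSMUSG00000027832) on chromosome 3 from 66219910 to 66225805 in the same build. Capitals mark the matches of 4 motifs searched on both strands: an NF-kB motif, a STAT motif (TTCNNNGAA), an AP-1 motif (TGANTCA) and a C/EBP motif (TTNNGCAA).
Chil1 promoter, chr1:134181906-134182155: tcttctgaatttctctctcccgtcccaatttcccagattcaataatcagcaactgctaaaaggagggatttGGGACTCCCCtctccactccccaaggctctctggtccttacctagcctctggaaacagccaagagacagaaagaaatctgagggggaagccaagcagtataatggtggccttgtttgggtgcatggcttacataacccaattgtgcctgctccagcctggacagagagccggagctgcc
Ptx3 promoter, chr3:66219637-66219886: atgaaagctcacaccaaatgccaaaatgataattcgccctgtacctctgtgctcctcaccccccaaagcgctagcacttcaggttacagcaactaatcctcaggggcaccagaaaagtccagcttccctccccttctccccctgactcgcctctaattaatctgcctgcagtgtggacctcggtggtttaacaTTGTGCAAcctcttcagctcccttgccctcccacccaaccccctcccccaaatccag
The Chil1 window held 1 NF-kB match, from 179 bases before the start, and none of the other 3 motifs. The Ptx3 window held 1 C/EBP match, from 57 bases before the start. An NF-kB match was also found for Matn4, whose promoter is not shown. An NF-kB match was present in 3.90% and a C/EBP match in 9.56% of the 32851 windows of this length in the RefSeq table, and the capitals mark letters, not measured binding.

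The label of these cells names Ptx3 first, but their RNA is led by Chil1. Chil1 gave 11002 of their score-gene UMIs (91.2%), Ptx3 744 (6.17%) and Matn4 312 (2.59%). Chil1 was the most abundant of the 3 genes in 573 of 606 cells, Ptx3 in 31 and Matn4 in 1. The summed level of Chil1 was 3701 CPM (3632 to 3770) in the high-score cells and 262 CPM (252 to 273) in the matched cells, a log2 ratio of 3.82. That of Ptx3 was 250.3 CPM (233 to 269) against 57.8 CPM (52.9 to 63.0), a log2 ratio of 2.12, and that of Matn4 was 105 CPM (93.6 to 117) against 69.8 CPM (64.4 to 75.5), a log2 ratio of 0.59. Of the 606 cells, 272 held Chil1 UMIs alone, 152 Chil1 with Matn4, 115 Chil1 with Ptx3 and 57 all 3 genes. A further 7 held Ptx3 alone and 3 held Ptx3 with Matn4. They are called high-score cells below, since Ptx3 was found in 30.0% and Matn4 in 35.0% of them.

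The score had no gap at its limit. It ran from 2175 to 17857 CPM in the high-score cells, with a median of 3464, and a high-score cell held 5 to 68 UMIs of the 3 genes (median 17). The 5 cells just inside the limit had 2175 to 2186 CPM and the 5 just outside had 2154 to 2175 CPM. At the other end, 34.2% of the 6065 basal cells had none of the 3 genes.

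In WT, high levels of Chil1 went with somewhat higher levels of Ptx3 and Matn4, and the reverse. For Ptx3 with Matn4 the intervals included 0. When the top 10% were taken by Chil1 alone, Ptx3, which that choice did not use, was at 122 CPM against 66.5 CPM in matched cells (log2 ratio 0.87, 0.68 to 1.06), and Matn4 had a log2 ratio of 0.24 (0.03 to 0.45). When they were taken by Ptx3 alone, Chil1 was at 928 CPM against 641 CPM (0.53, 0.47 to 0.60) and Matn4 had a ratio of 0.15, with an interval that includes 0 (−0.08 to 0.37). When taken by Matn4 alone, Ptx3 had a ratio of 0.09 (−0.12 to 0.31) and Chil1 of 0.22 (0.15 to 0.30). Over the 6065 basal cells thinned to 1500 UMIs each, the Spearman correlation was 0.04 for Ptx3 with Chil1, 0.01 for Ptx3 with Matn4 and 0.04 for Chil1 with Matn4, all too weak to count as a finding in sparse counts. With each cell's UMIs split at random into a part for choosing and a part for measuring, Chil1 and Ptx3 had log2 ratios of 3.31 and 2.10 in the measured part, whereas Matn4 had 0.23 (−0.08 to 0.53).

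The score genes were found in larger shares of basal cells than of endothelial barcodes, a cell type taken as lacking them. Those barcodes were also limited to under 0.1% of UMIs in Krt5 and Krt14, which can keep out barcodes with more free basal RNA, and whether their UMIs are free RNA was not tested. Thinned to 1500 UMIs, Chil1 was found in 31.5% of WT basal cells, Ptx3 in 7.68% and Matn4 in 10.8%, at a median of 4957 UMIs before thinning (48.1%, 16.5% and 27.1% unthinned). In 1381 WT barcodes outside the authors' table with endothelial markers, at a median of 3903 UMIs, the shares were 1.09%, 0.507% and 0.145% (3.26%, 1.52% and 0.869% unthinned). In 1064 such barcodes with fibroblast markers, at a median of 6380 UMIs, Chil1 was found in 2.07% and Matn4 in 1.41%, but Ptx3 in 31.4%, a larger share than in basal cells. Unthinned, these were 3.57%, 5.17% and 46.4%.

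The WT library held 60566053 UMIs over 10735 barcodes and the Fgd5-ko library 136697801 over 8798. Listed cells had a median of 4954 UMIs in WT (1563 to 15288) and 15712 in Fgd5-ko (3634 to 40227). The high-score cells and their matched cells had the same median of 4366 UMIs, against 5039 in the 5459 other basal cells. They held a median of 1489 genes against 1557, 4.87% against 5.08% mitochondrially encoded UMIs and 30.6% against 27.9% ribosomal protein UMIs. Fgd5 had 28 UMIs (0.824 CPM) in WT basal cells and 392 (4.01 CPM) in those of the library labelled Fgd5-ko. A knockout label would lead to fewer, but the driver and the deleted part are not stated, so these tags cannot test it. The high-score cells held no Fgd5 UMI, which allows up to 1.01 CPM by 3 counts and 1.24 CPM by the exact interval, and the matched cells had 0.785 CPM. The 2 libraries shared 34 barcodes, 2 of them among the 606 cells.

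The basal keratins of the gate were at similar levels in both pools and its contractile genes were lower. Krt5, which the gate used, was at 1114 CPM in the high-score cells and 1057 CPM in the matched cells (log2 ratio 0.08), and Krt14 at 2945 against 2867 CPM (0.04). Trp63, the p63 transcription factor of basal epithelium, named after its values were seen, was at 100 CPM against 105 (log2 ratio −0.07, −0.26 to 0.12). The 10 basal markers summed to 16293 CPM against 25854, with Acta2 and Tagln the bulk of the difference. Gate genes made up a median of 1.17% of UMIs against 1.86%, and 37.0% of the high-score cells had under 1%, against 12.5% of matched cells.

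Among lists of markers of other cell types, the largest difference in CPM was in luminal progenitor and alveolar markers, through Lcn2. Their 10 markers summed to 3301 CPM in the high-score cells against 1973 in matched cells. Of 9815 UMIs in the high-score cells Lcn2 gave 8701 and Trf 1075. Kit, Csn2, Wap and Csn1s1 of that list were at 0. Hormone-sensing luminal markers summed to 504 CPM against 649, with Krt8, which the gate used, at 234 CPM against 306. Schwann cell markers summed to 54.5 CPM against 75.7 and keratinocyte and hair follicle markers to 76.0 against 68.6. Endothelial markers summed to 13.8 CPM against 24.1 (log2 ratio −0.81, −1.32 to −0.32), with Kdr, Tie1 and Tek at 0. Fibroblast markers summed to 165 CPM against 156, of which Dcn gave 402 of 492 UMIs. Myeloid markers summed to 20.9 CPM against 14.1, of which Cd68 gave 53 of 62 UMIs, and Lyz2, Csf1r, Adgre1 and Itgax were at 0. The T, B, neutrophil, adipocyte, pericyte and erythroid lists stayed at or under 6.73 CPM. Any UMI of Pecam1, Cdh5, Col1a1, Col3a1, Cd3e, Cd79a or Tyrobp was found in 39 high-score and 165 matched cells. When the top 10% was chosen again among basal cells with none of these UMIs (551 cells, all of them high-score cells, with new matched cells), 20 genes were past 1.5-fold higher and 65 lower, against 21 and 64 with them.

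Most genes were at similar levels in the high-score and matched cells. Setting the score genes aside, 2260 genes averaged 50 CPM or more over both pools, and of these 21 were at least 1.5-fold higher in the high-score cells (0.929%) and 64 at least 1.5-fold lower (2.83%), with a median log2 ratio of −0.04 over all of them. After scaling the pools by TMM, which moved all ratios by 0.05, 26 were higher and 48 lower. No count of this kind is a test, since the cells come from 1 library and were chosen by part of the same RNA.

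Among genes averaging at least 50 CPM, Fgg, Trf, Mgp, Ccl2 and Fabp5 had the highest ratios. Fgg, the gamma chain of fibrinogen, was at 129.5 CPM (117 to 143) in the high-score cells and 45.3 CPM (41.0 to 49.9) in the matched cells, a log2 ratio of 1.52 (1.31 to 1.72). Trf, the iron carrier transferrin, was at 362 CPM against 134 (log2 ratio 1.44, 1.32 to 1.56). Mgp, matrix Gla protein, an inhibitor of calcification, was at 521 CPM against 197 (1.41, 1.31 to 1.5). Fabp5, a fatty acid carrier of epithelia, was at 223 CPM against 93.3 (1.26, 1.11 to 1.41).

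These genes were found in more of the high-score cells than of the matched cells. At 1500 UMIs per cell, Fgg was found in 10.7% of high-score cells and 4.62% of matched cells, Mgp in 41.3% and 20.9%, and Trf in 38.6% and 17.1%. Unthinned, these shares were 21.5% and 8.86% for Fgg, 68.8% and 43.6% for Mgp, and 71.0% and 39.7% for Trf.

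The other genes of the 12 highest were smaller in ratio. C4b, a complement component, was at 67.6 CPM against 33.3 (log2 ratio 1.02, 0.76 to 1.28), a value left uncertain by its near-identical copy C4a. Wif1, a secreted Wnt inhibitor, was at 111 CPM against 67.2 (0.73, 0.53 to 0.93), and Col9a3, a chain of collagen IX, at 179 against 109 (0.71, 0.55 to 0.86). Fam180a, Mycbp2, a ubiquitin ligase, and Smim3 had log2 ratios of 0.88, 0.81 and 0.69.

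The chemokines Ccl2, Ccl7 and Cxcl1 were higher, and Cxcl14, the most abundant chemokine, was lower. Ccl2, which attracts monocytes, was at 173 CPM (158 to 189) against 70.1 CPM (64.7 to 75.8), a log2 ratio of 1.30 (−0.14 where the score left out Chil1). Ccl7, a related monocyte attractant, was at 50.5 CPM against 11.7 (2.11, 1.74 to 2.49). Cxcl1, which attracts neutrophils, was at 176 CPM against 90.5 (0.96, 0.80 to 1.12). Both Ccl2 and Cxcl1 were found in a minority of cells. At 1500 UMIs Ccl2 was found in 10.6% of high-score and 4.84% of matched cells, and Cxcl1 in 13.5% and 9.02%. Unthinned, these were 17.2% and 9.96% for Ccl2 and 24.1% and 17.2% for Cxcl1. Cxcl14 went the other way at 2747 CPM against 3613 (−0.40, −0.43 to −0.36). Of 11 chemokines with at least 20 UMIs, 6 were past 1.5-fold higher and none lower, with a median log2 ratio of 0.81, whereas their sum had −0.24 because Cxcl14 dominates it. Over all 11205 genes with at least 20 UMIs, 3.92% were past 1.5-fold higher and 11.4% lower, with a median of −0.07. Each WT list count below is to be read beside these shares.

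Complement and acute phase genes were mixed, with more past 1.5-fold higher than lower in both lists. C3, the central complement component, was at 32.0 CPM against 12.6 (log2 ratio 1.35, 0.94 to 1.75). With Chil1 left out of the score C3 had −0.61 (−1.22 to −0.04), the opposite direction. C1s1, which has the close copy C1s2, was at 42.7 CPM against 29.2 (0.55, 0.23 to 0.86). Cd59a, which shields cells from complement, was lower at 18.5 CPM against 32.5 (−0.81, −1.26 to −0.39). Of 13 measured genes of the pentraxin and complement list other than Ptx3, 4 were past 1.5-fold higher and 2 lower. Over all genes with at least 20 UMIs the shares were 3.92% and 11.4%. The other pentraxins Nptx1 and Nptx2 were at 3.36 and 3.03 CPM in the high-score cells, with intervals of their ratios that include 0. Lcn2, a siderophore-binding defence protein, was at 2927 CPM against 1824 (0.68, 0.64 to 0.72), and Slpi, a protease inhibitor of secretions, at 3462 against 2718 (0.35, 0.32 to 0.38). In the innate defence list 3 of 8 genes were past 1.5-fold higher and 1 lower.

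Lists of inflammatory and stress regulators held few genes past 1.5-fold. Of 15 genes of the NF-kB list none was past 1.5-fold higher and 1 was lower, and Icam1, an adhesion molecule of that list, was at 420 CPM against 356 (log2 ratio 0.24, 0.14 to 0.33). Of 15 gp130 and STAT3 targets 1 was past 1.5-fold higher and none lower. Stat3 itself was at 132.5 CPM against 108 (0.30, 0.13 to 0.47). None of 18 immediate early genes, 14 heat shock genes, 14 unfolded protein response genes, 19 antioxidant genes or 16 cholesterol synthesis genes was past 1.5-fold in either direction.

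Genes related to the score proteins went both ways or stayed inside 1.5-fold. Of 9 hyaluronan genes 2 were past 1.5-fold higher and 3 lower, with the hyaluronan synthase Has2 at 25.2 CPM against 37.1 (log2 ratio −0.56, −0.94 to −0.19) and the hyaluronan-binding proteoglycan Vcan at 22.5 against 39.0 (−0.79, −1.19 to −0.41). Of 4 chitinase-family or CHIL1-binding genes none was past 1.5-fold. Tmem219, a reported partner of CHIL1 receptors, was at 19.8 CPM against 24 (−0.27, −0.72 to 0.15), and Chid1 at 13.5 against 15.9. Matn2, the other matrilin with UMIs enough to measure, was at 12.4 CPM against 21.1 (−0.76, −1.31 to −0.25). Col9a2, which encodes another chain of collagen IX than Col9a3, was at 136 CPM against 101 (0.42, 0.25 to 0.59), inside 1.5-fold.

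**Figure D1:**
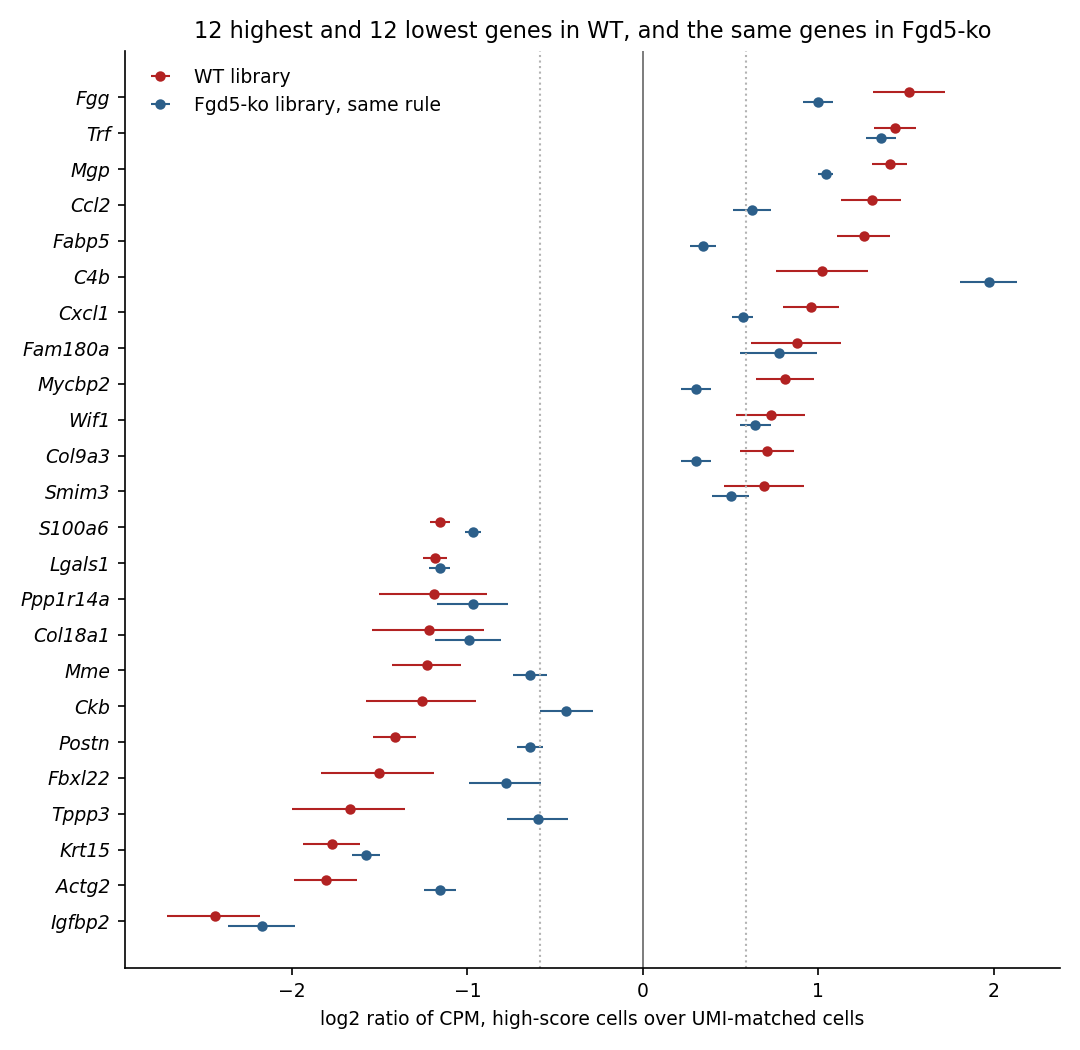
Log2 ratio of CPM, high-score cells over cells matched on total UMIs (horizontal axis), for the 12 highest and 12 lowest genes of the WT library (red) and the same genes in the library labelled Fgd5-ko (blue). Bars are exact 95% intervals for counting error only and dotted lines mark 1.5-fold. All 24 genes lie on the same side of 0 in both libraries, with Fabp5 nearer 0 (0.34) and C4b farther from it (1.97) in Fgd5-ko than in WT (1.26 and 1.02).

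Most genes of the contractile apparatus were lower, Acta2 and Tagln of the gate among them. Of 19 measured contractile genes 11 were at least 1.5-fold lower, against 11.4% of all genes with at least 20 UMIs. None was higher and none had a log2 ratio above 0, with a median of −0.78, against −0.07 over all of those genes. Actg2, the enteric smooth muscle actin, was at 95.9 CPM (85.1 to 108) in the high-score cells and 335 CPM (323 to 348) in matched cells, a log2 ratio of −1.81 (−1.99 to −1.63). Acta2, the smooth muscle actin that the gate used, was at 5793 CPM against 10260 (−0.82), and Tagln at 3863 against 7167 (−0.89). Cnn1, the smooth muscle calponin, was at 321 CPM against 689 (−1.10, −1.20 to −1.0), and Tpm2, a tropomyosin, at 1928 against 3751 (−0.96, −1.0 to −0.92). Ppp1r14a, an inhibitor of myosin phosphatase, was at 34.3 CPM against 78.2 (−1.19, −1.5 to −0.89). Oxtr, the oxytocin receptor through which milk ejection is triggered, named after its values were seen, was at 168 CPM against 248 (−0.57, −0.71 to −0.42), inside the 1.5-fold limit.

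Among genes of at least 50 CPM, the lowest ratio was that of Igfbp2, a secreted binder of insulin-like growth factors. It was at 43.1 CPM (35.9 to 51.2) in the high-score cells and 234 CPM (224 to 244) in matched cells, a log2 ratio of −2.44 (−2.71 to −2.18). Its relative Igfbp5 was higher, at 2374 CPM against 1567 (0.60, 0.56 to 0.64), whereas Igfbp4 was lower at 45.7 against 69.6 (−0.61, −0.88 to −0.34). Igfbp2 was found in 5.28% of high-score cells and 17.4% of matched cells at 1500 UMIs (12% and 32.0% unthinned).

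Some keratins were lower while Krt5 and Krt14 were not. The gate used Krt5 and Krt14 but not Krt15 or Krt17, so this contrast can partly reflect the gate. Krt15, a keratin of basal and hair follicle progenitor cells, was at 112 CPM (100.3 to 125) against 383 CPM (370.0 to 396), a log2 ratio of −1.77 (−1.94 to −1.61), and was found in 8.09% of high-score cells against 26.6% at 1500 UMIs (16.3% and 45.6% unthinned). Krt17, a keratin of basal and injured epithelium, was at 1348 CPM against 2339 (−0.79, −0.84 to −0.75). Of 22 genes of the keratin and basal identity list 7 were past 1.5-fold lower and none higher, against 11.4% and 3.92% of all genes. Those lower included Itga3 (22.2 against 40.7 CPM), the laminin-binding integrin alpha chain, and Col17a1 (116 against 188 CPM), a hemidesmosome collagen. Of 13 genes associated with basal stem cells none was past 1.5-fold in either direction. Tspan8 was at 115 CPM against 82.4 (0.48, 0.29 to 0.67) and Lgr5 at 66.3 against 80.0 (−0.27, −0.51 to −0.04).

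Matrix genes were lower more often than higher, as were all genes with at least 20 UMIs (11.4% past 1.5-fold lower and 3.92% higher). Postn, the matricellular protein periostin, was at 200.5 CPM (185 to 217) against 534 CPM (519 to 549), a log2 ratio of −1.41 (−1.54 to −1.29). Col18a1, the source of endostatin, was at 31.6 CPM against 73.6 (−1.22, −1.55 to −0.90) and Col4a1, a chain of basement membrane collagen IV, at 166 against 318 (−0.94, −1.08 to −0.80). Of 19 basement membrane genes 5 were past 1.5-fold lower and none higher, and of 20 interstitial matrix genes 7 were lower and 1 higher. Col6a1 was at 12.1 CPM against 30.7 (−1.34, −1.89 to −0.84).

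The remaining genes of the 12 lowest were of mixed function. S100a6, a calcium-binding protein, was at 1028 CPM against 2290 (log2 ratio −1.16, −1.21 to −1.10) and Lgals1, galectin 1, at 646 against 1467 (−1.18, −1.25 to −1.11). Mme, the membrane peptidase CD10 of myoepithelial cells, was at 83.1 CPM against 195 (−1.23, −1.43 to −1.04). Tppp3, a tubulin-binding protein, Fbxl22, an F-box protein of muscle, and Ckb, a creatine kinase, had ratios of −1.67, −1.50 and −1.26.

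Signalling lists went different ways. Of 15 Hippo YAP targets and components 4 were past 1.5-fold lower and none higher, with Cyr61 at 273 CPM against 372 (log2 ratio −0.45, −0.56 to −0.33) and a list median of −0.36. Of 11 Notch genes 4 were lower and 1 higher, with the target Hes1 at 96.2 CPM against 157 (−0.71, −0.90 to −0.53). Of 21 Wnt genes 4 were lower and 2 higher, with the ligand Wnt11 at 18.5 CPM against 39.8 (−1.11, −1.54 to −0.69). The shares over all genes with at least 20 UMIs are the 11.4% lower and 3.92% higher given above. Of 18 TGF-beta and BMP genes 2 were higher and 3 lower (median 0.12), and of 24 growth factors and receptors 2 were higher and 3 lower (median 0.02). Id3, a target of BMP signalling, was higher at 830 CPM against 525.5 (0.66, 0.59 to 0.73), as was Fst, the activin inhibitor follistatin (410 against 275 CPM, 0.58, 0.48 to 0.68), which stayed just inside 1.5-fold. All 18 ribosomal protein genes had ratios above 0 and none was past 1.5-fold. Their median was 0.14, against −0.07 over all genes with at least 20 UMIs.

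Genes of the G2 and M phases of the cell cycle were nearly absent. No high-score cell held 5 or more UMIs of the 20 G2/M genes, against 16 of 1818 matched cells (0.880%, 0.504 to 1.43). A count of 0 allows a share of up to 0.495% by 3 counts and 0.607% by the exact interval, which overlaps that of the matched cells. The list summed to 15.1 CPM against 78.2, and 13 of its 14 measured genes were past 1.5-fold lower, 3 of them with no UMI in the high-score cells. Most of the matched cells' G2/M UMIs, 537 of 697, came from those 16 cells. Cells with any Mki67 or Top2a UMI at 1500 UMIs made up 0.660% (0.180 to 1.68) and 1.05% (0.630 to 1.63), which overlap, and 2.15% and 1.98% unthinned, in the opposite order. The S phase list summed to 266 CPM against 268, while 3 of its 17 measured genes were past 1.5-fold lower and 1 higher, with a median log2 ratio of −0.33.

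**Figure D2:**
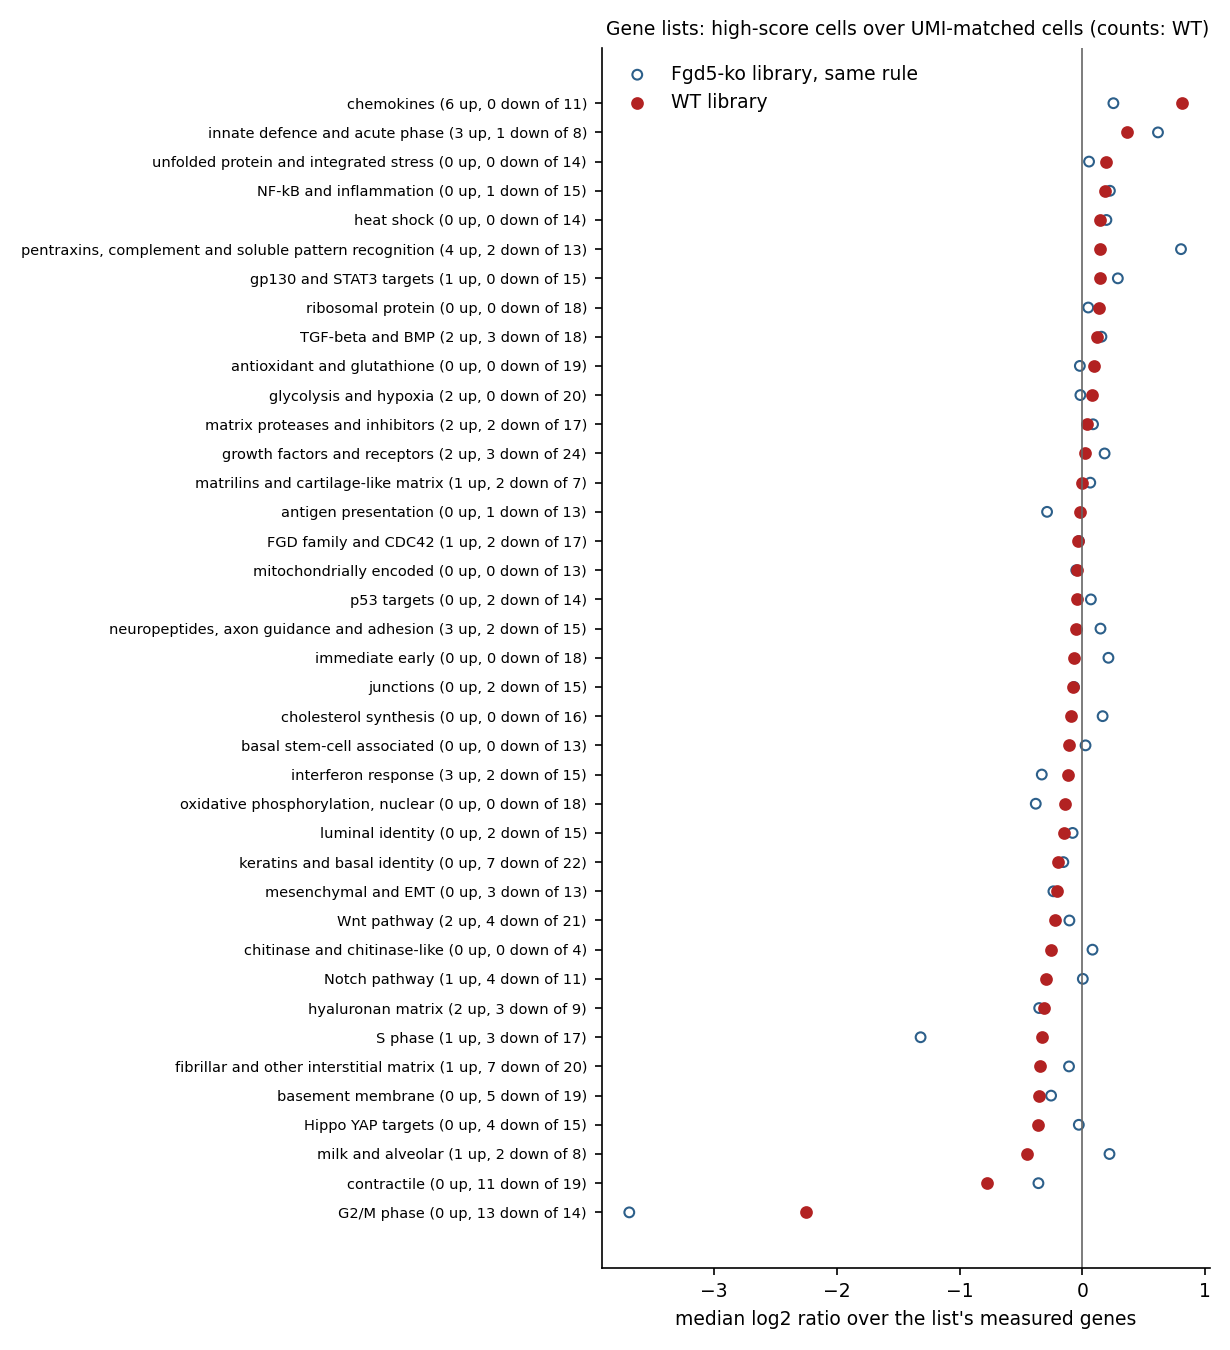
Median log2 ratio (horizontal axis) over the measured genes of each of 39 gene lists, high-score cells over matched cells, in WT (filled) and in the library labelled Fgd5-ko (open). The labels give how many genes were past 1.5-fold higher and lower of those measured in WT, and genes with no UMI in a pool enter at the value that 3 UMIs would give. In WT the contractile (−0.78) and G2/M lists lie lowest and chemokines (0.81) highest.

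Levels of the 24 highest and lowest genes varied with the score, for many of them only above its lowest groups. Basal cells were put in 7 groups: the 2074 with a score of 0, 4 groups of about equal size below the limit, and the 606 high-score cells in 2 groups of 303. All 12 highest genes had their highest level, and all 12 lowest genes their lowest, in the top group, but only 6 and 4 of them went the same way at every step. From the third group on, 11 of the 12 highest and all 12 lowest did so. Igfbp2 was at 476 CPM in cells with a score of 0, then 372, 185, 144, 84.7, 56.9 and 28.4 CPM with rising score. Krt15 went from 578 CPM at a score of 0 to 92.2 CPM in the top group. Actg2 was at 486 CPM at a score of 0, peaked at 555 CPM in the lowest positive group and was at 57.5 CPM in the top group. Trf went up from 72.6 to 392 CPM, Mgp from 154 to 632 CPM and Lcn2 from 1442 to 3120 CPM. The contractile list summed to 35612 CPM at a score of 0 and 15739 CPM in the top group, with its highest value, 38818 CPM, in the lowest positive group. Krt5 went from 921 to 1106 CPM and Krt14 from 2447 to 3108 CPM. Of these genes Krt5, Krt14, Acta2 and Tagln also set the gate. Fabp5 showed no gradient below the limit, with 123, 99.0, 94.8, 96.4 and 131 CPM in the groups outside the high-score cells and then 179 and 269.5 CPM. Col9a3 was likewise lowest in a middle group (97.4 CPM), and Postn, Tppp3, Mme and Lgals1 were highest in the lower positive groups. The groups differ in median depth (4313 to 6013 UMIs), and these are descriptions without a test.

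**Figure D3:**
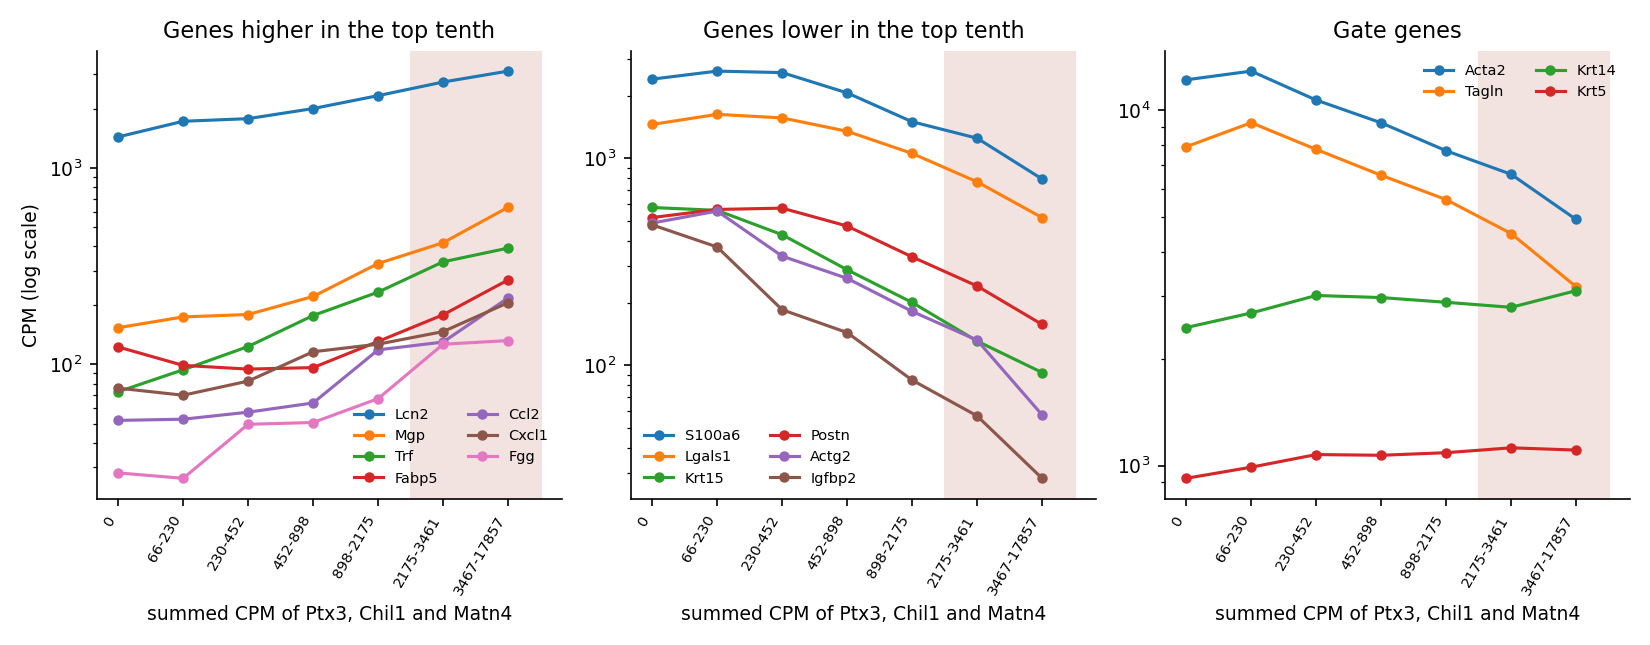
CPM on a log scale (vertical axis) against score group (horizontal axis, summed CPM of Ptx3, Chil1 and Matn4) for 7 genes higher and 6 genes lower in the high-score cells and for the 4 gate genes, WT basal cells. The shaded groups are the high-score cells. Igfbp2 runs down from 476 to 28.4 CPM, Mgp up from 154 to 632 CPM, and Krt5 stays between 921 and 1122 CPM.

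The genes whose level followed the score most closely over single cells were Slpi (Spearman 0.21), Lcn2 (0.21), Trf (0.20), Tpt1 (0.19), Fth1 (0.17), Mgp (0.16), Igfbp5 (0.16), Id3 (0.16), Rps27 (0.14) and Mt2 (0.13). The lowest values belonged to Acta2 (−0.29), Tpm2 (−0.26), Tagln (−0.25), Tmsb4x (−0.22) and Igfbp2 (−0.21). These were computed over 6065 cells thinned to 1500 UMIs, for 1619 genes found in at least 10% of them, and the cells share 1 library.

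The high-score cells lay together on the authors' t-SNE map in several patches rather than 1. Of the 15 nearest basal neighbours of a high-score cell, 41.9% on average were high-score cells, against 7.46% for matched cells and 9.99% of all basal cells. For 240 of the 606 cells most neighbours were high-score cells, and 60 cells had none among them. In the library labelled Fgd5-ko the corresponding share was 38.7%. The map was made from the same RNA, so this is no separate evidence.

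**Figure D4:**
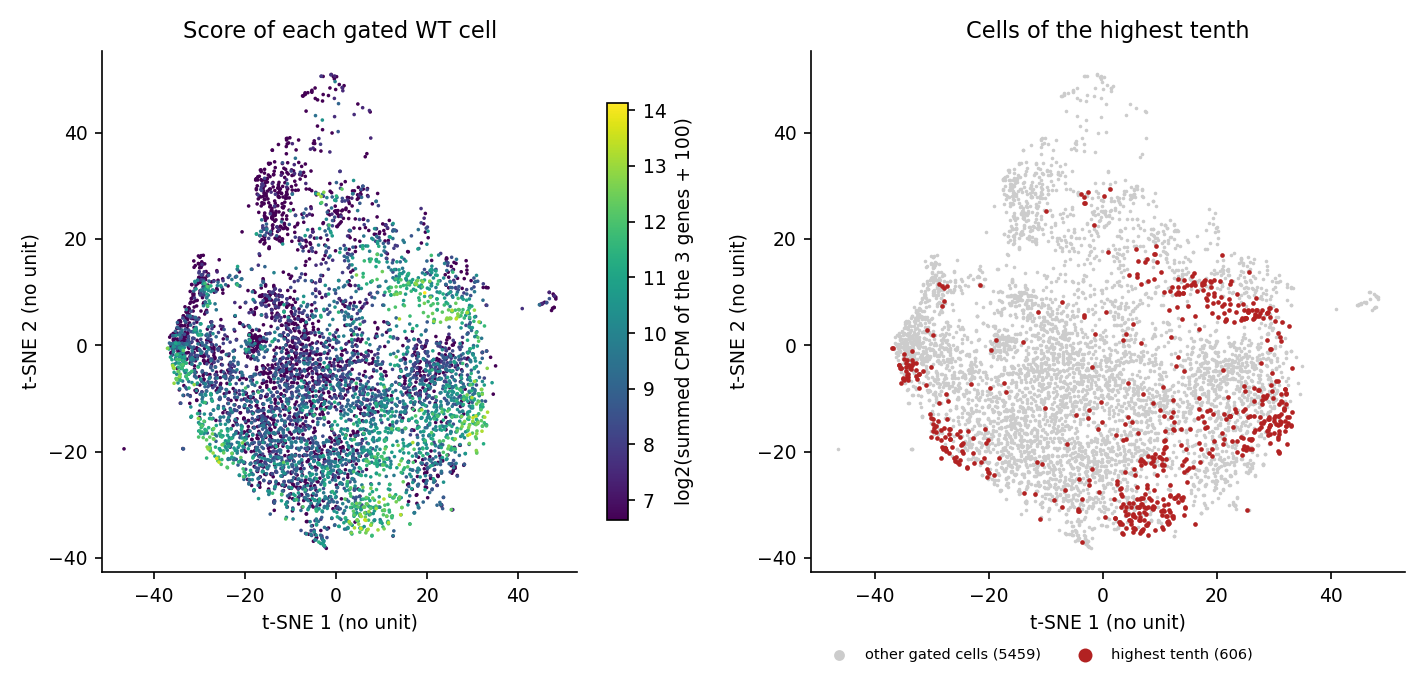
The authors' t-SNE coordinates (no unit) of the 6065 WT basal cells, coloured by the score on a log2 scale (left) and with the 606 high-score cells in red over the 5459 others (right). The red cells form patches at several edges of the map and a scatter between them.

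The 24 genes were picked from these same cells, so their direction in parts of them is a description and no separate evidence. In 4 groups of the high-score cells by total UMIs, each with its own matched cells, all 12 highest genes had ratios above 0 and all 12 lowest below 0 in each group. Past 1.5-fold in all 4 groups were 5 of the 12 highest and 11 of the 12 lowest. Some intervals included 0: those of C4b, Cxcl1 (0.31, −0.18 to 0.79), Smim3 and Ppp1r14a in the group of lowest depth. So did those of Fam180a and Mycbp2 in the next group and of Smim3 in the deepest. Among the 182 high-score cells with a Ptx3 UMI and the 424 without, all 24 genes were past 1.5-fold in both.

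Choosing by Ptx3 gave largely other cells than choosing by Chil1. The top 10% by Chil1 alone shared 552 of 606 cells (91.1%) with the high-score cells, and the top 10% by Ptx3 alone 135 (22.3%), where a single Ptx3 UMI could suffice. With Chil1 alone 19 genes were past 1.5-fold higher and 63 lower, all 24 named genes among them. With Ptx3 alone 11 were higher and 14 lower, and of the named genes 3 of the 12 highest and 3 of the 12 lowest were past 1.5-fold. Igfbp2 was low under both choices (log2 ratio −2.35 by Chil1 and −1.29 by Ptx3), as was Actg2 (−1.74 and −0.77), and Fgg was high under both (1.43 and 0.65). The top 10% by Matn4 alone shared 105 cells (17.3%) with the high-score cells. There 0 genes were past 1.5-fold higher and 3 lower, 1 of the 12 lowest among them.

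Other genes had unlike ratios under these choices. Mgp was at 536 CPM against 196 in cells chosen by Chil1 (log2 ratio 1.45) and 244 against 235 in cells chosen by Ptx3 (0.06). Lgals1 had −1.24 by Chil1 and 0.12 by Ptx3, and Mme −1.38 and 0.35. Krt17 had −0.86 and 0.17, and Vim −0.81 and 0.30. The highest genes by Ptx3 alone were Tspan8, a tetraspanin (195 CPM against 83.4, log2 ratio 1.23), Sfrp1, a secreted Wnt modulator (143 against 62.5, 1.19), and Dclk1, a microtubule-associated kinase (71.8 against 39.5, 0.86). Sfrp1 and Dclk1 were named after their values were seen. With each of the 3 genes weighted alike in the score, 11 genes were past 1.5-fold higher and 18 lower, and with Chil1 left out of it 5 and 7. In the latter case 20 of the named genes past 1.5-fold in the main comparison lay on the other side of 0. Among them were Ccl2, C3, Col9a3, Fam180a and Wif1 of those higher. Of those lower they included Postn, Lgals1, Mme, Tppp3, Col18a1, Krt17, Vim, Wnt11, Col6a1 and Col17a1. The difference between the choices was not tested, as all come from 1 library.

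**Figure D5:**
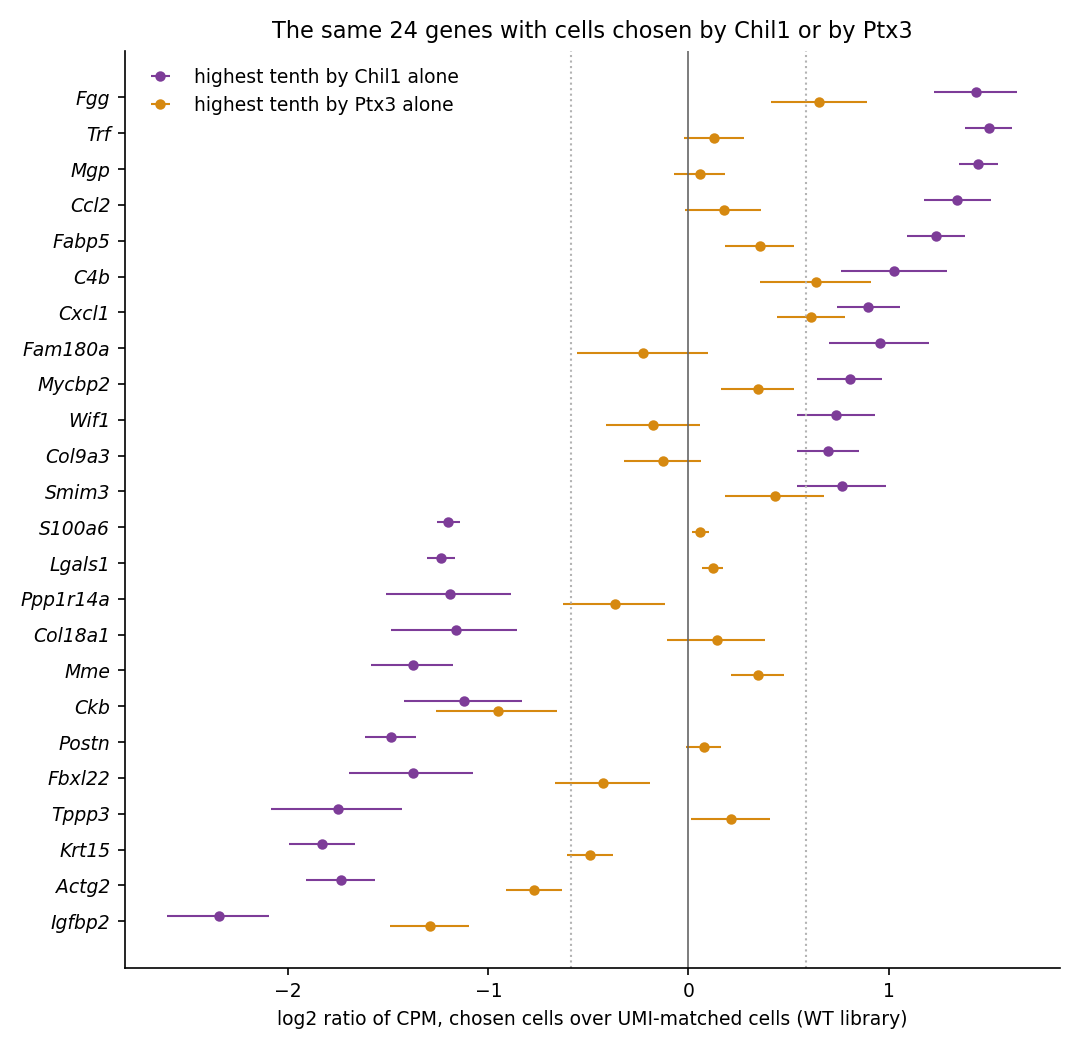
Log2 ratio of CPM (horizontal axis) of the same 24 genes in the WT library, for the top 10% of basal cells by Chil1 alone (purple) or by Ptx3 alone (orange) over their own matched cells, with exact 95% intervals. All 24 genes pass 1.5-fold (dotted lines) by Chil1, and Fgg, C4b, Cxcl1, Igfbp2, Ckb and Actg2 do so by Ptx3.

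The same rule applied to the library labelled Fgd5-ko, whose cells it was not set on, chose 567 of 5667 basal cells, at a limit of 1035 CPM, and there too Chil1 led (1665 CPM against 173 in matched cells, log2 ratio 3.27). Ptx3 was at 152 CPM against 15.6 (3.28) and Matn4 at 34.3 against 21.3 (0.69). In that library 28 of 2554 genes were past 1.5-fold higher (1.1%) and 50 lower (1.96%). Of the 21 genes higher in WT, 10 were past 1.5-fold there (47.6% of the WT genes and 35.7% of its 28). All 19 of them that were abundant enough there had ratios above 0, with intervals that exclude 0, against 40.2% of 2075 genes measured in both. Of the 64 lower genes 13 were past 1.5-fold (20.3% of the WT genes and 26% of its 50), and 54 of 55 measured had ratios below 0, against 59.8% of all. None went past 1.5-fold the other way.

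Single genes had the following ratios in the library labelled Fgd5-ko. Igfbp2 had a log2 ratio of −2.17 (29.3 against 132 CPM), Krt15 of −1.58 (174 against 519 CPM) and Trf of 1.36 (247 against 96.5 CPM). Fabp5 had 0.34 (273 against 216 CPM) and Ccl2 0.62 (130.2 against 84.6 CPM), against 1.26 and 1.30 in WT, and C4b had 1.97 (86.1 against 22 CPM), against 1.02. Whether the libraries differ in these ratios was not tested. Over all 12950 genes with at least 20 UMIs there, 4.31% were past 1.5-fold higher and 9.96% lower. The contractile list had 4 of 20 genes past 1.5-fold lower (median −0.36), the pentraxin and complement list 10 of 15 higher (median 0.80) and the innate defence list 7 of 12 higher and 1 lower (median 0.62). The chemokine list had 4 of 12 higher and 1 lower (median 0.25, against 0.81 in WT), and Cxcl14, lower in WT (−0.40), was higher there at 2658 CPM against 2251 (0.24, 0.22 to 0.26). All 20 G2/M genes and 15 of 20 S phase genes (median −1.32) were past 1.5-fold lower there, and 3 of 567 cells (0.529%, 0.109 to 1.54) held 5 or more G2/M UMIs against 187 of 1701 matched cells (11%, 9.55 to 12.6). The libraries differ in depth (median 4957 and 15863 UMIs per basal cell), and genotype, library and depth cannot be told apart.

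At the WT limit of 2175 CPM the library labelled Fgd5-ko held 151 cells (2.66% of its basal cells) against 9.99% in WT. Chil1 over all basal cells was at 560 CPM in WT and 302 CPM in Fgd5-ko, Ptx3 at 67.0 and 25 CPM and Matn4 at 66.6 and 18.8 CPM. In these 151 cells Igfbp2 had a log2 ratio of −2.54, Krt15 of −2.36, Mgp of 1.20 and Fabp5 of 0.01 (−0.15 to 0.16). A CPM score is coarser in the shallower WT cells, so shares at a common limit also depend on depth.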

How the data were processed

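RNA of single cells was measured in 2 libraries, 1 per group (WT and Fgd5-ko), grouped by their labels. The authors deposited whole-number UMI counts per gene and barcode, made with Cell Ranger per the file headers (software version 3.1.0), and a table of listed cells with t-SNE coordinates, a score without unit that the authors deposited. The submitters' processing notes name mm9 and Seurat 3.0 with no role, and the filter behind the table is not stated there.

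Listed cells of each library were gated and scored as the report describes. CPM values were computed here from the deposited counts, from summed UMIs of a pool over its total. Matched cells were drawn without reuse by nearest total UMIs, and seed 1 was used for thinning and splitting UMIs. CPM intervals are exact Poisson intervals, ratios have exact conditional binomial intervals, and shares of cells have Clopper-Pearson intervals, all at 95%. They cover counting error only, and no test was made with 1 library per group. Depth was 1563 to 15288 UMIs per listed WT cell. Where no UMI was found, 3 counts set the limit. A gene was compared at a mean of at least 50 CPM over both pools and counted in a list at 20 UMIs or more. The scripts were tested on simulated data.

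The text names the 12 highest and 12 lowest ratios outside the score, gate, mitochondrial and ribosomal genes. It draws other genes mainly from up to 4 largest of each of 39 lists at a mean of at least 20 CPM, not all of which are named. It also draws on the score and gate genes, Fgd5, pentraxins, chitinase-like genes, matrilins and the 10 genes most like the score. Genes named in cell type lists come from those 14 lists. The members and lists were chosen with earlier results of these data known. No doublet caller was run; cells holding UMIs of other cell types were left out as an alternative. Of 31053 genes, 31011 were matched by ID to GENCODE M21 (GRCm38), which gave gene positions. Promoter sequences came from RefSeq (GRCm38.p6), where 4 of the 12 highest, 8 of the 12 lowest and all 3 score genes were found.

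TMM factors came from edgeR 4.0.16 in R 4.3.3. All else was computed in Python 3.11.15 with SciPy 1.17.1, NumPy 2.4.6 and pandas 2.3.3, and drawn with matplotlib 3.10.9. Alternatives changed the share kept, the score, the gate, the matching, the scaling, the CPM minimum and the cells left out.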

Additional observations from a re-analysis of the deposited data

Results flagged for a closer look

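Some barcodes outside the authors' table also reached the score limit. Of 420 WT barcodes with at least 1500 UMIs that were not listed and passed the basal gate, 11 (2.62%, 1.31 to 4.64, exact 95% interval) reached the score limit of 2175 CPM. These data were in no comparison of the report, which is what brought them here. The 11 had a median of 10602 UMIs, against 11459 over the 420, of which 170 lay above the highest total of a listed cell. Ptx3 was at 1043 CPM in the 11 and 68.1 CPM in unlisted barcodes matched on UMIs, and Chil1 at 1999 against 230.3 CPM, values that chose them. Ptx3 gave 107 of their score-gene UMIs, Chil1 205 and Matn4 7, a larger part for Ptx3 than its 6.17% in the listed high-score cells. Of the 12 genes highest in the listed cells 8 had ratios above 0 here and 5 were past 1.5-fold. Those 5, Fgg, Trf, Fabp5, Cxcl1 and Wif1, had intervals above 0. Of the 12 lowest 10 had ratios below 0 and 8 were past 1.5-fold. Among these 8 only Actg2 (−1.49, −2.49 to −0.62) and Ckb (−1.50, −3.01 to −0.28) had intervals that exclude 0. Fbxl22, Col18a1 and Ppp1r14a rested on 2 or 3 UMIs in the 11. No share over all genes is given for these barcodes, so the counts are a description only. Some genes went the opposite way, with Ccl2 at a log2 ratio of −0.85 (−1.87 to 0.05), Mycbp2 at −1.14 (−2.85 to 0.23) and Tppp3 at 0.95 (0.01 to 1.86). Fam180a had no UMI in the 11.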

How the results depend on the processing

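No paired analysis was possible because each group has 1 library. Against 21 genes higher and 64 lower, the top 5% gave 34 higher, the top 20% 13 higher, equal weights 11 and 18, a score without Chil1 5 and 7, a gate at 1% 42 lower, a CPM minimum of 20 58 and 149, and one of 200 7 and 22. A score of Ptx3 alone, added after seeing the data, gave 11 and 14. The counts under the other alternatives stayed within 1.5 times. List medians stayed within their limits in 763 of 780 values, moved in 17 and reversed in none. Sign changes of small medians were not counted as reversed. Named genes gave 3279 values, of which 624 moved and 40 were counted as changed in sign. These 40, in 22 genes past 1.5-fold in the main comparison, all came from choosing without Chil1, which picks other cells. Sign changes of smaller ratios were not counted, such as that of Krt5 (0.08, and −0.08 with split UMIs). In the main comparison, log2 ratios were Isg15 1.08, Hk2 0.61, Krt19 −1.53, Ltbp2 −1.04, Igfbp6 −0.80, Fbln1 −0.70, Vim −0.70 and Col17a1 −0.69. With Ptx3 alone, log2 ratios were C3 −0.13, Col18a1 0.14, Col6a1 0.42, Col9a3 −0.13, Fam180a −0.23, Fbln1 0.14, Hk2 −0.018, Igfbp6 0.076, Isg15 −0.70, Krt17 0.17, Krt19 0.16, Lgals1 0.12, Ltbp2 0.12, Mme 0.35, Postn 0.076, S100a6 0.058, Tppp3 0.21, Vim 0.30, Wif1 −0.18 and Wnt11 0.61. With Ptx3 and Matn4 they were C3 −0.61, Ccl2 −0.14, Col17a1 0.078, Col18a1 0.089, Col6a1 0.18, Col9a3 −0.14, Fam180a −0.22, Fbln1 0.093, Igfbp6 0.10, Isg15 −0.65, Krt17 0.20, Krt19 0.32, Lgals1 0.11, Ltbp2 0.12, Mme 0.19, Postn 0.019, Tppp3 0.11, Vim 0.17, Wif1 −0.19 and Wnt11 0.30. Depth limits genes below 20 UMIs in the pools and cells with few score-gene UMIs, the lowest with 5.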
